A study of Drosophila melanogaster with 9 samples.

Results

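The levels of 37 *Drosophila* genes of DNA replication and the cell cycle were examined, out of 17714 genes in the deposited count table. The genes were chosen by their function, with earlier results of these data known. Of them, 16 act in DNA replication and 8 govern passage from G1 into S phase. The other 13 form a mitotic list, which includes twe, the Cdc25 phosphatase gene of meiosis. All 37 genes were measured in 9 RNA libraries of whole third-instar larvae, in 3 groups of 3: females and males with a normal karyotype, and metafemales. Metafemales carry 3 X chromosomes and 2 sets of autosomes, and they are poorly viable, which is why larvae were used. They came from C(1)DX, ywf/winscy females, in which the X chromosomes are attached, crossed with Canton S males, and were picked out by sex and black mouthparts. The control females (2 X chromosomes) and males (1 X chromosome) were Canton S, and all larvae were grown at 25 °C. The metafemales therefore differed from the controls in strain background as well as in X dose, and these cannot be told apart. Neither the number of larvae in a library nor whether replicates came from separate cultures is given in the sources used here, so p-values measure only the spread between these libraries, which may be technical.

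Chromosomes are copied in S phase. The origin recognition complex (Orc), Cdc6 and Dup (the fly Cdt1) load the hexameric Mcm2-7 helicase onto origins, and geminin restrains Dup. Cyclin D with Cdk4 and cyclin E with Cdk2 drive entry into S phase, partly by relieving the repression of E2f1 and Dp by Rbf. Cyclins A, B and B3 with Cdk1 then drive mitosis once a Cdc25 phosphatase, String (stg) or Twine (twe), activates Cdk1, and the anaphase-promoting complex with Fizzy (fzy) ends it. In a larva, imaginal disc cells, neuroblasts and germ cells divide by mitosis. Most other larval tissues grow by endocycles, which alternate S phase with gap phases without mitosis and which depend on Fizzy-related (fzr). In whole larvae, fewer cells of a type and less RNA per cell cannot be told apart.

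The libraries held 130919406 to 184268612 estimated counts each, and the 37 genes took 0.0564% to 0.1% of them. Assembled transcripts with no gene in the annotation took 13.45% of metafemale 1 and 24.55% to 32.59% of each other library. Levels are given as CPM, the gene's count per 1000000 of the library's whole total, and a count of 3 equals 0.0163 to 0.0229 CPM. Fold changes come from edgeR, which rescales the totals by TMM, so a fold can differ from the ratio of CPM. The labels were checked with the RNAs of the male dosage compensation complex. lncRNA:roX1 stood at 238 to 325 CPM in males and at no more than 18.4 CPM in any female or metafemale library. The median ratio of X-linked protein-coding genes to the female mean was 1.19 to 1.43 in metafemales. All 37 genes passed the filter on low counts in every comparison. The CPM of male 3 was the lowest of the males for 36 of the 37 genes, and that of male 2 the highest for 31. Female 1 was the lowest of the females for 28 of the 37 genes, and metafemale 1 the highest of the metafemales for 26.

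In metafemales most mitotic genes stood lower than in females, most replication genes did not pass the test, and the X-linked members that passed it rose. Of the 37 genes, 14 fell and 4 rose at an adjusted p below 0.05 (edgeR quasi-likelihood test, Benjamini-Hochberg over all genes tested), and 19 did not pass. Of all 11972 genes tested, 38.5% passed, 17.7% as lower and 20.8% as higher, against 37.8% and 10.8% of the members. The median log2 fold change was -0.29 over the members and -0.02 over all genes tested. By role, 9 of 13 mitotic genes fell, with a median of -0.52, and 0 rose (0 also at an unadjusted p below 0.05, by edgeR and by DESeq2). Of the 16 replication genes 3 fell and 2 rose (median -0.27), although 1 to 2 fell without single libraries and 7 with totals over annotated genes only in place of TMM, a setting chosen after the data were seen. Of the 8 G1 and S entry genes 2 fell and 2 rose (median -0.16). Only dup passed a 2-fold change, which 14.6% of all genes tested did. All 3 metafemale libraries lay below all 3 female libraries for 21 members and above them for 4, where 25.6% and 25.1% of all genes tested were separated in these directions (50.7% in either). The plot of levels relative to the female mean shows the block of mitotic genes low in each metafemale library.

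**Figure D1:**
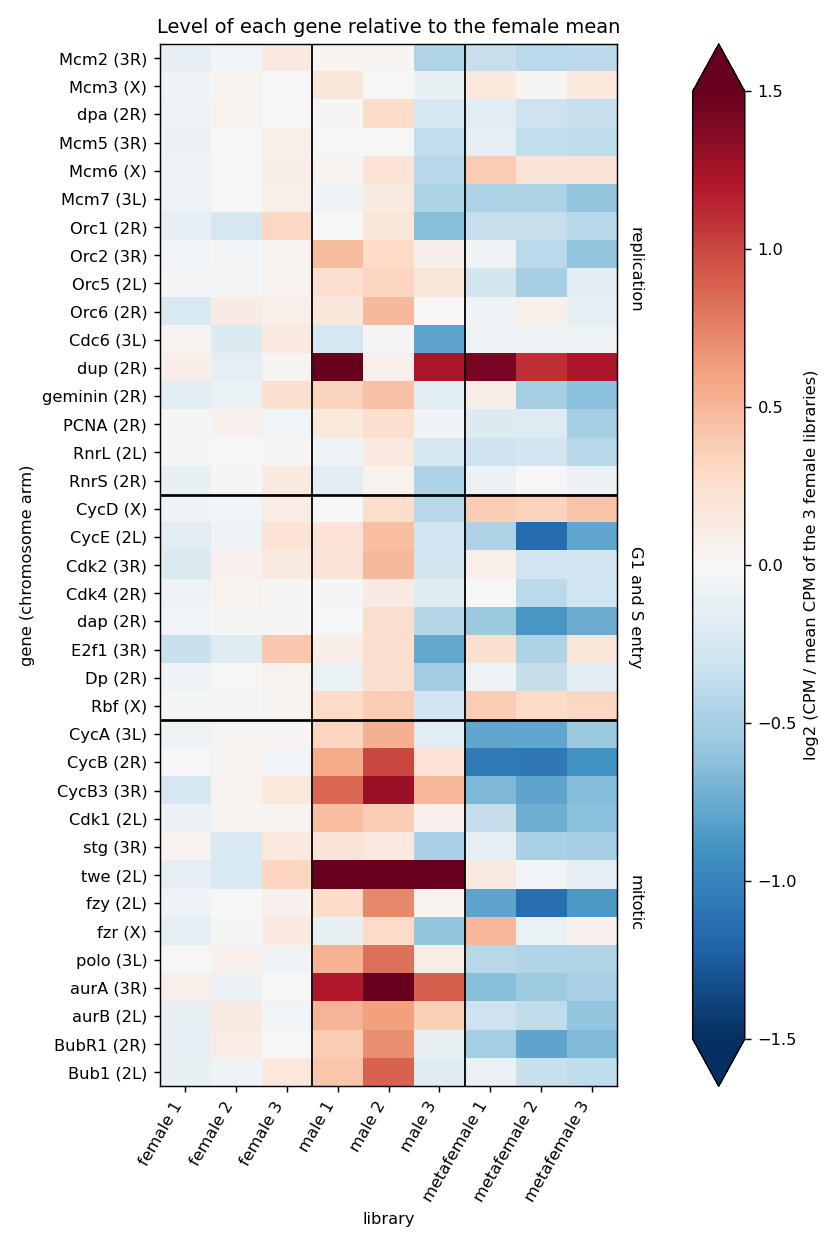
Level of each of the 37 genes (rows, by role, with the chromosome arm) in each of the 9 libraries (columns), as the log2 ratio of its CPM to the mean CPM of the 3 female libraries, with the scale ending at 1.5 in size. Most mitotic genes are blue in all 3 metafemale libraries, twe and aurA are red in all 3 male libraries, and dup is red in the metafemales and in males 1 and 3.

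Among the mitotic genes, CycB, the main B-type cyclin, stood at 26.7, 27.3 and 25.8 CPM in females 1 to 3 and at 12.8, 12.7 and 14.2 CPM in metafemales 1 to 3. Every metafemale library was far below the lowest female library. CycB fell by 0.98 on the log2 scale (SE 0.12, adjusted p = 0.00197). fzy, the Cdc20 activator that lets the anaphase-promoting complex destroy mitotic cyclins, stood at 7.41, 7.68 and 8.03 CPM in females and at 4.47, 3.51 and 4.26 CPM in metafemales. It fell by 0.90 (SE 0.11, adjusted p = 0.00168), again with no overlap. It lies on 2L, from 16310956 to 16313097 in the BDGP6 assembly, and overlaps cact (162 to 262 CPM) on the opposite strand by 62 bases. The counting is not stated to use strand. Counts are therefore uncertain in bases shared with an opposite-strand gene, here and for the overlaps given below.

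CycA, a cyclin used in S phase and mitosis, stood at 73.2, 79.6 and 78.5 CPM in females and at 44.8, 44.8 and 52.4 CPM in metafemales, and fell by 0.67 (SE 0.13, adjusted p = 0.00713). CycB3, the cyclin that acts late in mitosis and in meiosis, stood at 4.02, 4.95 and 5.34 CPM in females and at 2.98, 2.75 and 3.05 CPM in metafemales. It fell by 0.67 (SE 0.13, adjusted p = 0.00832). All metafemale libraries lay under all female libraries for both cyclins. Cdk1, their kinase partner, stood at 23.1, 25.3 and 25.2 CPM in females and at 19.2, 14.8 and 15.9 CPM in metafemales, and fell by 0.54 (SE 0.08, adjusted p = 0.00318). BubR1, which delays anaphase until chromosomes are attached, stood at 13.2, 15.6 and 14.5 CPM in females and at 10.1, 8.32 and 9.12 CPM in metafemales. It fell by 0.63 (SE 0.09, adjusted p = 0.00317). The decreases of these 6 genes kept an adjusted p below 0.05 without any single library.

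The calls of 3 mitotic kinases were less stable when single libraries were left out. polo, which acts in centrosome maturation and the spindle, stood at 35.2, 36.8 and 33.9 CPM in females and at 26.4, 25.8 and 25.9 CPM in metafemales, a decrease of 0.41 (SE 0.11, adjusted p = 0.0236). aurA, the centrosomal Aurora kinase, stood at 3.87, 3.47 and 3.68 CPM in females and at 2.36, 2.54 and 2.62 CPM in metafemales, with a log2 fold change of -0.52 (SE 0.16, adjusted p = 0.0416). aurB, the Aurora kinase of the chromosomal passenger complex, stood at 7.52, 8.91 and 7.88 CPM in females and at 6.51, 6.21 and 5.37 CPM in metafemales, with a log2 fold change of -0.40 (SE 0.13, adjusted p = 0.0431). No metafemale library of these genes reached a female one. Without 1 library the adjusted p of polo rose above 0.05 in 4 of 6 fits (up to 0.0846, without female 2), that of aurA in 6 of 6 (up to 0.128, without female 1) and that of aurB in 5 of 6 (up to 0.146, without female 2).

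The other 4 mitotic genes did not pass in edgeR with TMM, although stg and Bub1 did with totals over annotated genes only. stg, the Cdc25 of somatic divisions, had a log2 fold change of -0.35 (adjusted p = 0.0677), and Bub1, a checkpoint kinase, one of -0.25 (adjusted p = 0.106). twe, the Cdc25 of meiosis, was near its female level, at 1.18 to 1.44 CPM against 1.12 to 1.64 CPM. fzr, the X-linked activator of the anaphase-promoting complex used in endocycles, stood at 39.4, 42.4 and 47.8 CPM in females and at 61.0, 40.3 and 45.3 CPM in metafemales. Metafemale 1 was high and the other two lay within the female range (log2 fold change 0.19, adjusted p = 0.211).

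**Figure D2:**
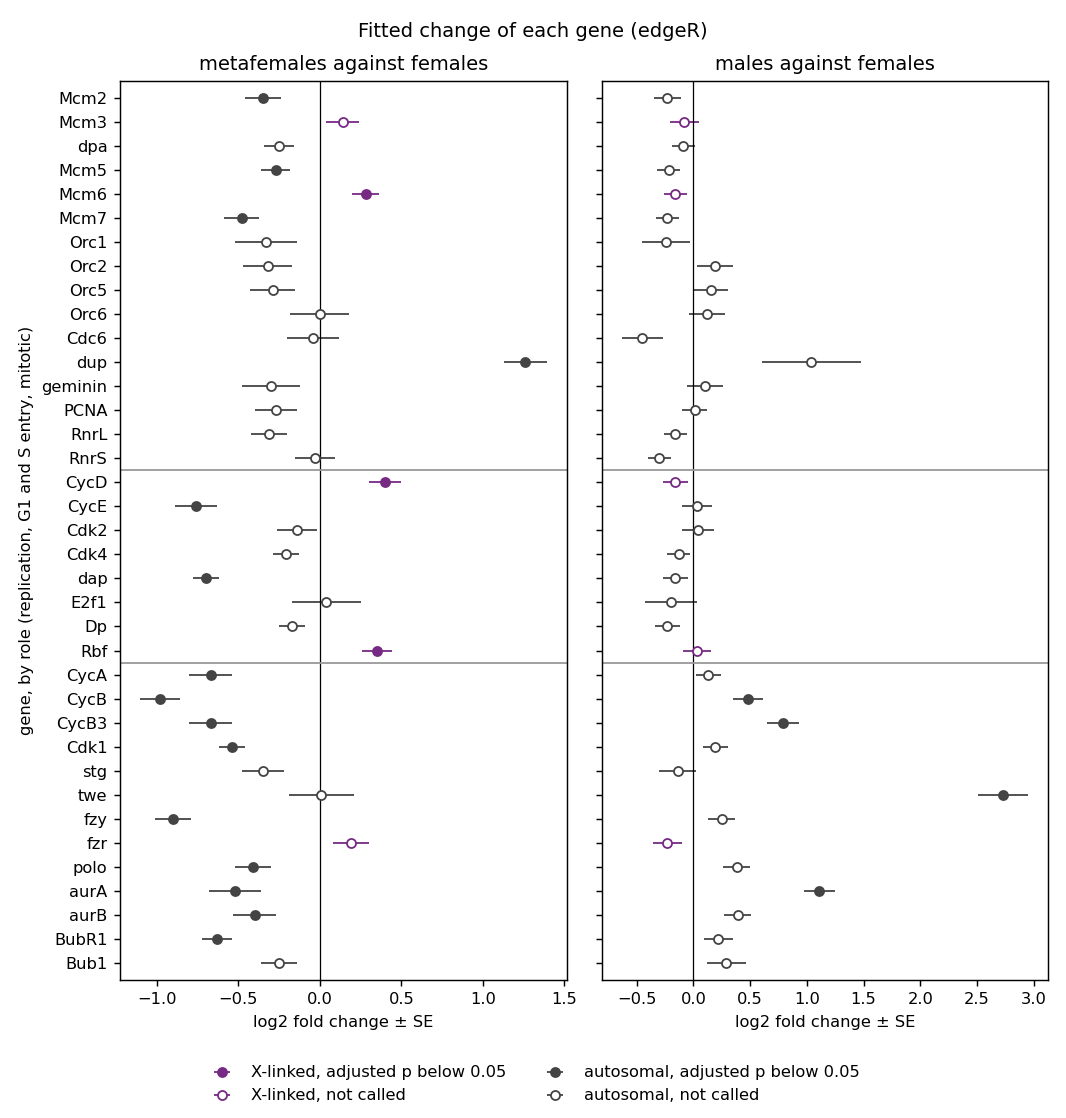
Fitted log2 fold change with its standard error for each of the 37 genes, ordered by role, in metafemales against females (left) and males against females (right), with filled points for an adjusted p below 0.05 and purple for X-linked genes. The 2 panels share the female libraries. On the left 14 filled points lie below 0 and 4 above, of which 3 are X-linked, and on the right the 4 filled points are the mitotic genes CycB, CycB3, twe and aurA.

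Among the G1 and S entry genes, the S phase cyclin and the inhibitor of its kinase were both low. CycE, the cyclin of S phase onset, stood at 25.4, 27.3 and 33.1 CPM in females and at 20.7, 12.9 and 16.6 CPM in metafemales, and fell by 0.76 (SE 0.13, adjusted p = 0.00532). dap (dacapo), the inhibitor of cyclin E with Cdk2, stood at 30.4, 31.7 and 31.9 CPM in females and at 21.4, 17.2 and 18.7 CPM in metafemales. It fell by 0.70 (SE 0.08, adjusted p = 0.00142). Neither gene overlapped between the groups, and both calls held without any single library.

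The X-linked genes of this role stood higher. CycD, the G1 cyclin that also promotes growth, stood at 12.4, 12.5 and 13.9 CPM in females and at 16.7, 16.2 and 17.4 CPM in metafemales, and rose by 0.40 (SE 0.10, adjusted p = 0.0225). Rbf, the retinoblastoma-family repressor of E2f1, stood at 12.3, 12.3 and 13.1 CPM in females and at 16.4, 15.4 and 15.6 CPM in metafemales, and rose by 0.35 (SE 0.09, adjusted p = 0.025). The libraries of both genes separated by group. Leaving out any library other than metafemale 1 raised the adjusted p above 0.05, up to 0.0692 for CycD (without metafemale 3) and 0.077 for Rbf (without female 2). With totals over annotated genes only, the log2 fold changes were smaller and neither passed.

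Their autosomal partners did not pass in edgeR with TMM, although with totals over annotated genes only Cdk4 and Dp were called lower. CycD over Cdk4, compared as CPM per kb of exon, was 0.467, 0.434 and 0.492 in females and 0.599, 0.773 and 0.766 in metafemales. Rbf over Dp was 0.2, 0.189 and 0.197 in females and 0.269, 0.305 and 0.27 in metafemales. Both ratios were higher in every metafemale library than in any female library. X-linked genes in general rose relative to autosomal ones, with median log2 fold changes of 0.44 and -0.12 over all genes tested. In males the first ratio was 0.393 to 0.513 and the second 0.216 to 0.26. The remaining genes, Cdk2, Cdk4, E2f1 and Dp, had log2 fold changes of -0.21 to 0.04 in metafemales. E2f1, the activator of S phase genes, varied most within groups, from 136 to 228 CPM in females and from 125 to 203 CPM in metafemales.

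The 6 Mcm2-7 genes encode the subunits of a single ring, and 2 of them, Mcm3 and Mcm6, are X-linked. Mcm7 stood at 14.2, 14.9 and 15.8 CPM in females and at 10.8, 10.8 and 9.96 CPM in metafemales, and fell by 0.48 (SE 0.11, adjusted p = 0.0125). Its transcript overlaps asRNA:CR45871 on the opposite strand by 2003 bases, and that RNA was at 0.571 to 1.06 CPM. Mcm2 stood at 6.75, 7.2 and 8.19 CPM in females and at 5.82, 5.57 and 5.61 CPM in metafemales, with a log2 fold change of -0.35 (SE 0.11, adjusted p = 0.0438). Mcm5 stood at 12.4, 13.2 and 13.9 CPM in females and at 12.0, 10.2 and 10.1 CPM in metafemales, with a log2 fold change of -0.27 (SE 0.09, adjusted p = 0.043). All metafemale libraries were under all female libraries for these genes. The calls of Mcm2 and Mcm5 were lost without any 1 of the 6 libraries, with adjusted p up to 0.115 and 0.122, while that of Mcm7 held in all 6 fits.

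Mcm6 moved in the opposite direction, at 13.4, 14.0 and 15.1 CPM in females and 18.4, 16.1 and 16.1 CPM in metafemales, and rose by 0.28 (SE 0.08, adjusted p = 0.0366). Every metafemale library was above every female library, but the adjusted p passed 0.05 when any library other than metafemale 1 was left out, up to 0.102 without female 2. Mcm3 had a log2 fold change of 0.14 (adjusted p = 0.305) and dpa, which encodes Mcm4, one of -0.25 (adjusted p = 0.0679).

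The level per kb was averaged over the X-linked Mcm genes and over the autosomal ones. The first mean over the second was 1.01, 1.0 and 0.985 in females, 1.08, 0.993 and 1.08 in males and 1.47, 1.42 and 1.53 in metafemales. The ratio was therefore near 1.0 with either normal dose of the X chromosome and above every control library in metafemales (mean 1.47 ± 0.0556, SD, n = 3). As a ratio of mean levels within each library, it does not depend on the library total. Over all X-linked protein-coding genes, the median ratio to the female mean was 1.43, 1.19 and 1.29 in metafemales 1 to 3. Over the autosomal ones it was 0.995, 0.811 and 0.87. A higher level of X-linked relative to autosomal genes was thus not particular to the Mcm genes. The plot of Mcm levels shows Mcm6 above and Mcm7 below the females.

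**Figure D3:**
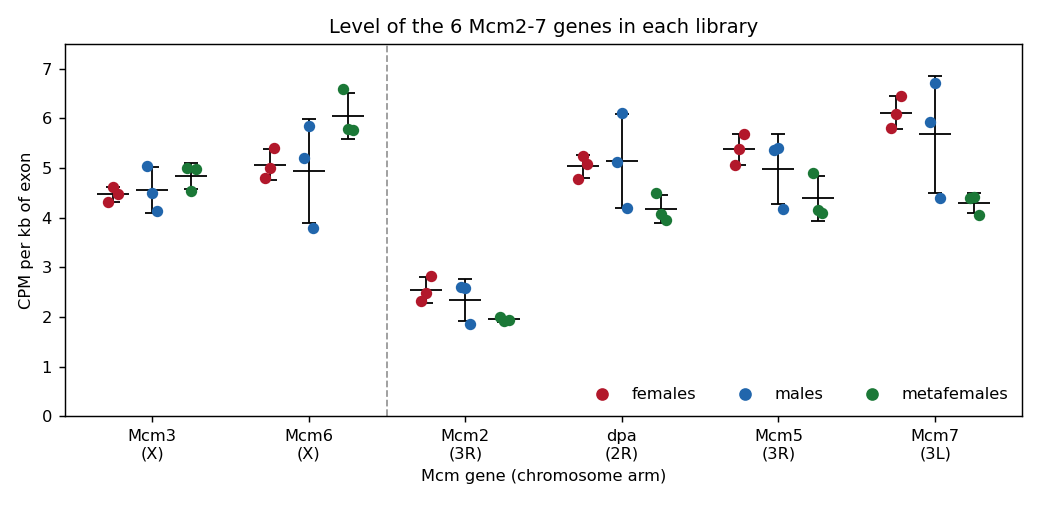
CPM per kb of exon of the 6 Mcm2-7 genes in each library (points), with the group mean and SD (bars), for females, males and metafemales, with X-linked genes left of the dashed line. In metafemales Mcm6 stood at 5.77 to 6.59 against 4.8 to 5.4 in females, and Mcm7 at 4.06 to 4.41 against 5.81 to 6.46.

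dup had the largest change of the 37 genes in metafemales. It stood at 2.37, 2.01 and 2.29 CPM in females and at 5.97, 4.74 and 5.15 CPM in metafemales, and rose by 1.26 (SE 0.13, adjusted p = 0.00119), or 2.40-fold. All metafemale libraries were high, and the call held without any single library. In males it stood at 6.86, 2.34 and 5.17 CPM, with male 2 at the female level and the other two at the metafemale level. The log2 fold change in males was 1.04 with an SE of 0.44 (adjusted p = 0.185). Its partner geminin did not pass in any comparison by edgeR, and geminin over dup per kb was 2.86 to 3.94 in females and 0.963 to 1.36 in metafemales. In males it was 1.39, 4.43 and 1.31, so males 1 and 3 were near the metafemales.

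The estimated counts assigned the rise of dup in metafemales to 1 of its 2 annotated transcripts. The estimated level of FBtr0339999 was 0.185, 0.22 and 0.962 CPM in females and 5.59, 4.42 and 4.82 CPM in metafemales. That of FBtr0087387 was 2.19, 1.79 and 1.32 CPM in females and 0.379, 0.321 and 0.332 CPM in metafemales. In males 1 to 3 FBtr0339999 was at 5.2, 1.03 and 2.2 CPM and FBtr0087387 at 1.66, 1.3 and 2.97 CPM. The larger transcript thus differed between males 1 and 3, whose gene totals were both high. Both transcripts have the same coding exons. The leading exon of FBtr0339999 lies wholly within the longer one of FBtr0087387. The longer exon spans the leading exon of SRPK (158 bases) on the opposite strand. SRPK stood at 12.1 to 32.0 CPM. The counting is not stated to use strand, so the count of dup is uncertain in that exon.

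The estimated shares of the transcripts of Cdk4 and twe also differed between metafemales and females. For Cdk4, FBtr0345340 made up 65.1% to 67.5% of the estimated count in metafemales and 0.345% to 2.75% in all female and male libraries. FBtr0087103 made up 5.86% to 10.7% in metafemales and 58.9% to 74.0% in the others. The metafemale libraries stood apart from all 6 control libraries here. For twe, whose gene total was low and similar in both groups, FBtr0331446 made up 66.2% to 90.6% in metafemales and 0.442% to 0.595% in females. In males it made up 16.6% to 32.1%. For dpa, FBtr0345797 made up 90.9% to 91.4% in metafemales and 88.3% and 90.0% in females 1 and 2, but 2.73% in female 3 and 1.56% to 2.2% in males. Metafemales were thus near females 1 and 2, and female 3 went with the males. The coding exons are the same in all transcripts of Cdk4 and in those of dpa. The leading exons of FBtr0087103 and FBtr0345340 start at 16579564 and 16579765 on 2R and both end at 16579926. FBtr0345340 thus has no leading-exon bases that FBtr0087103 lacks, and the leading exons of dpa are nested in the same way. The other Cdk4 transcripts have separate leading exons. Estimated counts divide the reads of shared exons between transcripts, so these shares have no test and are less certain than the gene totals.

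**Figure D4:**
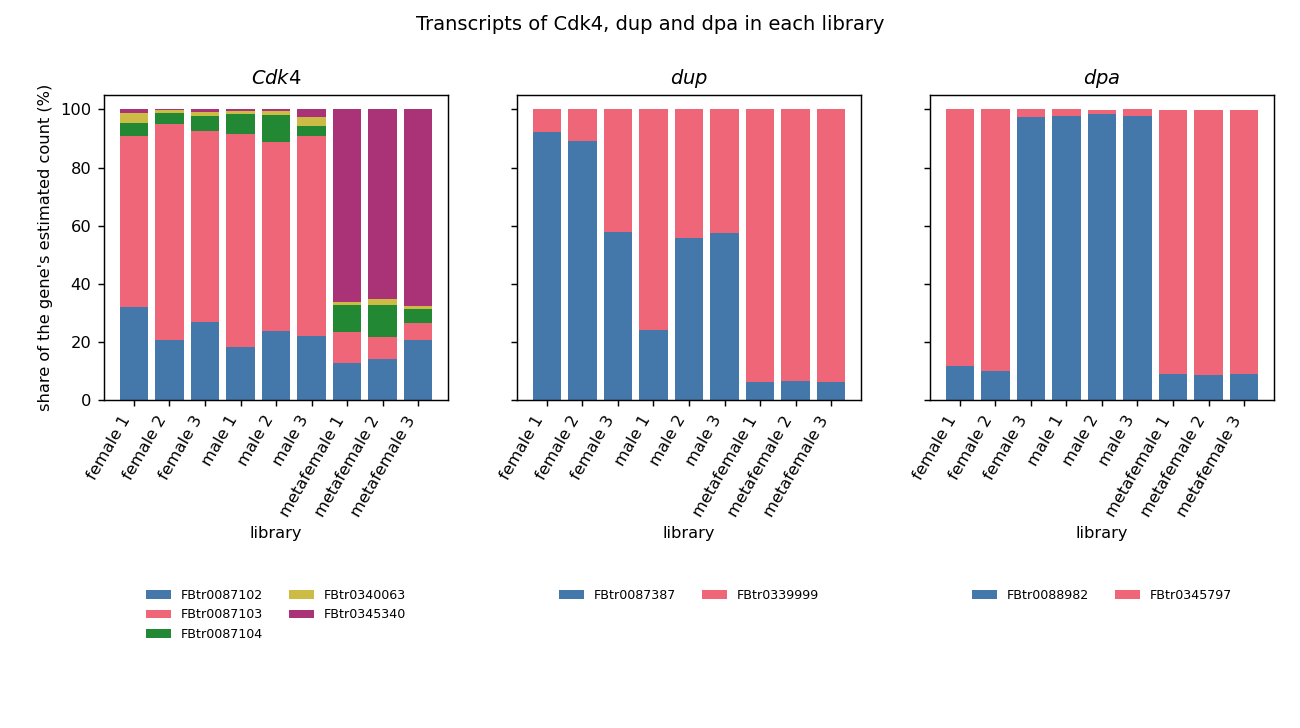
Share of the gene's estimated count (%) given to each annotated transcript of Cdk4, dup and dpa in each of the 9 libraries. For Cdk4 the 3 metafemale libraries differ from all 6 others, for dup FBtr0339999 makes up over 90% in the metafemales, and for dpa female 3 resembles the males.

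The remaining replication genes did not pass in metafemales against females by edgeR with TMM. The origin recognition subunits Orc1, Orc2, Orc5 and Orc6 had log2 fold changes of -0.33, -0.32, -0.29 and 0.00, and the loader Cdc6 one of -0.04. PCNA, the sliding clamp, had -0.27, and RnrL and RnrS, the large and small subunits of ribonucleotide reductase, had -0.31 and -0.03. For Orc1, Orc2, Orc5, PCNA and RnrL all 3 metafemale libraries were below all 3 female libraries, so they were low in each metafemale library. RnrL was called lower by DESeq2 (adjusted p = 0.0453) and with library totals in place of TMM (adjusted p = 0.0437). With totals over annotated genes only, Orc2, PCNA and RnrL were called lower (adjusted p = 0.0482, 0.0289 and 0.0114).

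Members on the X chromosome and on the autosomes were also counted apart. Log2 fold changes of the 5 X-linked members (Mcm3, Mcm6, CycD, Rbf and fzr) were 0.14 to 0.40, and 3 were called higher, where 43.1% of all X-linked genes tested were, although that of Mcm3 was -0.01 with totals over annotated genes only. Of the 32 autosomal members 14 fell and 1 rose, with a median of -0.32, where 20.4% of all autosomal genes tested fell and 16.5% rose. The medians over all X-linked and all autosomal genes tested were 0.44 and -0.12. On autosomes alone the 12 mitotic members had a median of -0.53 and the 14 replication members one of -0.28.

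The same genes were summed by role to compare S phase with mitosis in each library. The summed CPM of the 16 replication genes over that of the 13 mitotic genes was 0.557, 0.547 and 0.569 in females, 0.675, 0.751 and 0.665 in metafemales and 0.445, 0.387 and 0.478 in males. The groups did not overlap, with males lowest and metafemales highest (means 0.558 ± 0.0108, 0.437 ± 0.0457 and 0.697 ± 0.0473, SD, n = 3 each). No test was made, since the genes were chosen. Replication genes summed to 140 to 155 CPM in females, 128 to 140 CPM in metafemales and 123 to 163 CPM in males, so these groups overlapped or touched. Mitotic genes summed to 252 to 272 CPM in females, 176 to 208 CPM in metafemales and 258 to 420 CPM in males, and the metafemale libraries lay below the others. Over autosomal members alone the ratio averaged 0.547, 0.406 and 0.722, and without dup 0.549, 0.422 and 0.669, in females, males and metafemales.

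Other genes of these pathways, none of them members, were counted in the same way. These lists too were chosen with earlier results of these data known. Of 31 further replication genes, 6 fell and 3 rose in metafemales (median -0.15), and of 37 further mitotic genes, 21 fell and 2 rose (median -0.45), where 17.7% of all genes tested fell and 20.8% rose. Among the replication genes, those that rose were X-linked: Cdc7, a kinase that activates origins (0.74, adjusted p = 0.00529, edgeR), Psf3, a subunit of the GINS complex (0.63, adjusted p = 0.0174), and Cdc45, a partner of the Mcm helicase (0.61, adjusted p = 0.0109). The largest decreases were those of PolD1, the catalytic subunit of DNA polymerase delta (-0.47, adjusted p = 0.0351), RfC38, of the clamp loader (-0.45, adjusted p = 0.0248), and Fen1, a flap endonuclease (-0.44, adjusted p = 0.0335).

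Of the mitotic genes, vih, a ubiquitin-conjugating enzyme of the anaphase-promoting complex, fell by 0.91 (adjusted p = 0.00274, edgeR). Spc25, of the kinetochore, fell by 0.73 (adjusted p = 0.0183), and gwl, the Greatwall kinase, had a log2 fold change of -0.68 (adjusted p = 0.0497). The X-linked kinetochore gene Ndc80 rose by 0.56 (adjusted p = 0.0127). Nuf2, of the same kinetochore complex, was called higher (5.36, SE 1.28, adjusted p = 0.0176), but metafemale 2 stood at 0.0655 CPM beside 3.31 and 3.19 CPM in the others, and females stood at 0.0434 to 0.0579 CPM. The ratio of these further lists was 0.542 to 0.580 in females, 0.615 to 0.653 in metafemales and 0.446 to 0.543 in males, so the metafemale libraries again stood highest and 1 male library reached the lowest female one.

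**Figure D5:**
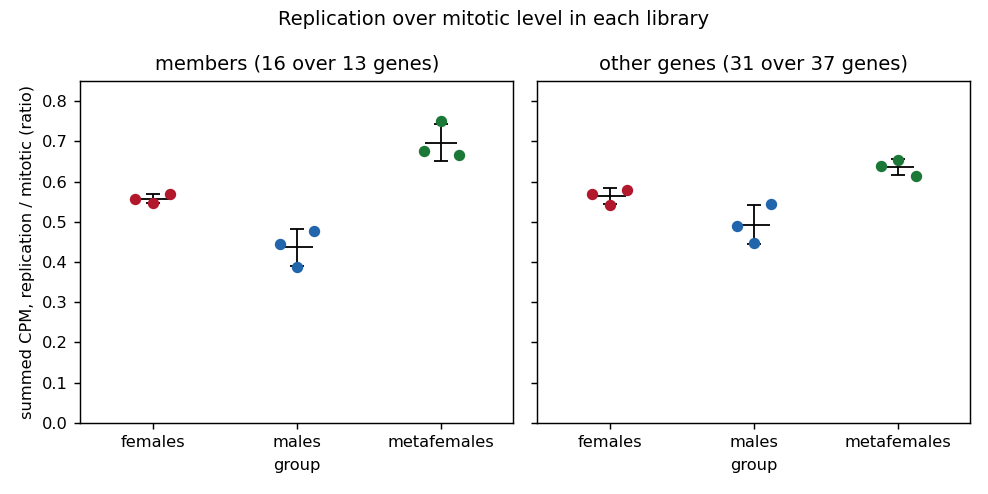
Summed CPM of replication genes over summed CPM of mitotic genes in each library (points), with the group mean and SD (bars), for the members (left) and for the further genes of both pathways (right). Females, males and metafemales average 0.558, 0.437 and 0.697 on the left and 0.563, 0.493 and 0.636 on the right.

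Markers of tissues moved between metafemales and females as well. Of 10 imaginal disc genes 6 fell, and their summed level was 891 to 1000 CPM in females and 453 to 921 CPM in metafemales, with Dll falling by 1.36 (adjusted p = 0.00162, edgeR). Metafemale 1 was within the female range of that sum, in which hth and sd, neither of them called, were the highest genes. The 6 genes that fell (vg, nub, ap, Dll, wg and tsh) were each below every female library in all 3 metafemale libraries. Of 8 neuroblast genes 1 fell (wor), with sums of 180 to 245 and 111 to 209 CPM. Salivary gland genes summed to 6130 to 7680 CPM in females and 1040 to 2060 CPM in metafemales, where 6 of the 9 tested fell and 3 rose. Those that fell were the Sgs genes (log2 fold changes of -5.19 to -1.09), which made up most of the sum. Those that rose were ng1, ng2 and ng3 (2.21 to 4.55). Larval muscle genes summed to 5490 to 9380 CPM and 13400 to 24400 CPM, where 5 of 6 rose. Of 6 fat body genes 3 fell, with sums of 43000 to 55600 and 35300 to 45700 CPM. Of 7 genes of germline stem and gonial cells 2 fell (bam and ovo), and of 5 spermatocyte genes tested 1 fell (topi). In females and metafemales ovo stood at 23.3 to 62.1 CPM, far above the other germline genes (at most 1.74 CPM). No list had a defining gene at 0 in both groups apart from nht of the spermatocyte list. The part of tissue composition or larval stage in the decrease of the mitotic genes was not tested.

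In males against females the members called by edgeR were all of the mitotic list, and they included twe, the Cdc25 of meiosis. Of the 37 genes 4 rose and 0 fell (2 fell at an unadjusted p below 0.05 in edgeR, and by DESeq2 6 rose and 1 fell after adjustment), where 20.8% of 13677 genes tested passed, 19.5% as higher and 1.28% as lower. All 4 were among the 13 mitotic genes, whose median log2 fold change was 0.29, against -0.13 over the replication genes and 0.01 over all genes tested. The share of members that rose, 10.8%, was below that of all genes. Past a 2-fold change were 2 of the 4, twe and aurA, where 17.9% of all genes tested were. The male libraries lay above all female libraries for 9 members and below them for 0, where 26.1% and 3.01% of all genes tested were separated in these directions (29.1% in either).

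twe had the largest change, at 1.19, 1.12 and 1.64 CPM in females and 8.7, 13.3 and 6.81 CPM in males. It rose by 2.73 (SE 0.22, adjusted p = 0.000151, edgeR), or 6.63-fold. The gene lies on 2L from 16259414 to 16261877 (BDGP6) and overlaps EndoGI (23.5 to 30.8 CPM) on the opposite strand by 98 bases. Relative to stg per kb, twe was at 0.135 to 0.171 in females, 0.186 to 0.206 in metafemales and 0.881 to 1.38 in males. The meiotic Cdc25 thus came near or passed the level of the somatic one in the male libraries only.

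aurA stood at 8.49, 10.8 and 6.86 CPM in males and rose by 1.11 against females (SE 0.14, adjusted p = 0.00122, edgeR). It overlaps CG12213 (4.73 to 12.1 CPM) on the opposite strand by 153 bases. CycB3 stood at 8.65, 11.6 and 6.74 CPM in males and rose by 0.79 (SE 0.14, adjusted p = 0.00694). CycB stood at 39.0, 53.1 and 30.8 CPM in males and rose by 0.48 (SE 0.13, adjusted p = 0.0439). Every male library was above every female library for these genes. The calls of twe, aurA and CycB3 held without any single library, while that of CycB was lost in 4 of 6 fits (without any 1 female library or male 1), with adjusted p up to 0.154 without female 3. CycB, CycB3 and aurA were thus lower in metafemales and higher in males than in the same female libraries. The other members had log2 fold changes of -0.45 (Cdc6) to 1.04 (dup).

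The 10 spermatocyte markers all rose in males, and their summed level was 133 to 291 CPM in males, 15.9 to 21.5 CPM in females and 14.4 to 37.6 CPM in metafemales. nht, a testis-specific TAF, was at 0 counts in all female and metafemale libraries. Male 2 had the highest sum and male 3 the lowest, an order that the male libraries also showed for most members and for the imaginal disc and neuroblast sums. Of the germline stem and gonial genes 3 of 7 rose (vas, aub and bgcn), while ovo had a log2 fold change of -0.67 (adjusted p = 0.115, edgeR). Of 6 fat body genes 2 fell, and of 9 salivary gland genes 1 rose. The part of testis cells in the rise of the members was not tested. Without CycB, CycB3, aurA and twe, a choice made after the data were seen, the ratio of replication over mitotic genes averaged 0.647 in females, 0.545 in males and 0.778 in metafemales. Of the further genes, 9 of 37 mitotic genes rose (median 0.16), or 24.3%, near the 19.5% of all genes tested. The largest increases were those of Nuf2 (6.90, adjusted p = 6.7e-05), sub, a kinesin of the meiotic and mitotic spindle (1.12, adjusted p = 0.000835), and pim, the fly securin (0.88, adjusted p = 0.00194). Among the 31 replication genes Orc3 rose by 2.10 (adjusted p = 0.00143) and Cdc45 fell by 0.61 (adjusted p = 0.023).

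Metafemales and males, the larvae with the most and the fewest X chromosomes, differed mainly in the mitotic genes among those called. This comparison uses libraries of both comparisons above and adds no independent samples. Of the 37 genes 12 fell and 4 rose, where 45.6% of 13784 genes tested passed, 28.2% as lower and 17.4% as higher. Of the 13 mitotic genes 10 fell and 1 rose, with a median of -0.74, against -0.06 over the replication genes and -0.11 over all genes tested. A 2-fold decrease was passed by 5 of the 37 genes and by 2936 of all 13784 genes tested. In either direction 30.8% of all genes passed a 2-fold change. The 5 members were twe (-2.66, SE 0.18, adjusted p = 7.5e-05), aurA (-1.58, SE 0.16, adjusted p = 0.00033), CycB (-1.41, SE 0.14, adjusted p = 0.000352), CycB3 (-1.40, SE 0.14, adjusted p = 0.000381) and fzy (-1.09, SE 0.13, adjusted p = 0.000883, all by edgeR). All 3 metafemale libraries lay below all 3 male libraries for these 5 genes, and for 16 members in all, with 1 above (CycD), where 37.1% and 18.3% of all genes tested were separated in these directions (55.3% in either).

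The genes that rose against males by edgeR were all X-linked: CycD (0.62, adjusted p = 0.00678), Mcm6 (0.50, adjusted p = 0.011), fzr (0.48, adjusted p = 0.039) and Rbf (0.38, adjusted p = 0.0493, edgeR). By DESeq2 these 4 and the autosomal Cdc6 (0.45, adjusted p = 0.0343) were called higher. CPM overlapped between the groups for Mcm6, fzr and Rbf, and with library totals in place of TMM 0 members rose (0 also at an unadjusted p below 0.05). The call of Rbf was lost without any 1 library (adjusted p up to 0.146, without metafemale 2), and that of fzr without any library other than male 2 (up to 0.137, without male 1). Among the further genes, Cdc45 (1.27, adjusted p = 0.000504), Cdc7 (0.52, adjusted p = 0.0389), Ndc80 (0.61, adjusted p = 0.00976) and Grip91, of the gamma-tubulin ring complex (0.37, adjusted p = 0.0286), rose. Orc3 (-1.77, adjusted p = 0.00179), Orc4 (-0.61, adjusted p = 0.0194) and Fen1 (-0.53, adjusted p = 0.0231) fell. So did pim (-1.48, adjusted p = 0.000364), sub (-1.42, adjusted p = 0.000178) and thr (-1.19, adjusted p = 0.000902).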

How the data were processed

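RNA of whole third-instar larvae was sequenced as paired reads of 150 bases after removal of ribosomal RNA. The authors aligned reads with Hisat2 2.0.5, used Cuffmerge 2.2.1 for lncRNAs, and deposited expected counts per transcript, estimated by StringTie 1.3.3 with Ensembl release 102 (BDGP6), as whole numbers without normalization. Of 34919 FlyBase transcripts, 34750 were paired with 17714 genes of Ensembl release 115 and summed. The 8017 assembled transcripts count toward the totals only. Libraries were grouped by labels and column names.

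Each pair of groups was compared with edgeR 4.0.16 in R 4.3.3 (filterByExpr, TMM, quasi-likelihood test, Benjamini-Hochberg over all genes tested, threshold 0.05). An SE is the log2 fold change over the square root of F. Figures and sums used Python 3.11.15 with pandas 2.3.3 and matplotlib 3.10.9. The fit was tested on simulated data. Alternatives were DESeq2 1.42.0, other scalings and filters, all 9 libraries in one fit, the replicate number as a block and each library left out. Levels per kb use the union of a gene's exons. Limits from counts cover counting error only.

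The members, pathway lists and markers were chosen with earlier results of these data known. Members called against females were named with every library, and of the further genes the 3 with the largest called change per list, direction and comparison. The marker nos and the duplicate name CENP-meta were not matched.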

Additional observations from a re-analysis of the deposited data

How the results depend on the processing

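For 38 called log2 fold changes of members, 532 values were computed under the alternatives. No direction reversed, 433 calls were kept and 99 were lost. In metafemales against females, BubR1, Cdk1, CycA, CycB, CycB3, CycE, Mcm7, dap, dup and fzy kept their calls under every alternative. The count of members that rose was 4, and 1 to 4 without single libraries, 2 with the replicate block and 1 with totals over annotated genes only, a setting chosen after the data were seen. The count that fell was 14, and 9 to 12 without single libraries and 22 with totals over annotated genes only. Of the 16 replication genes 3 fell, and 1 to 7 under the alternatives, and of the 13 mitotic genes 9 fell, and 6 to 11. That scaling moved the median of all genes by -0.15 against females and -0.30 against males, and library totals in place of TMM moved it by 0.12 in males against females and by -0.19 in metafemales against males. In males against females 0 members fell, and 1 (RnrS) by DESeq2, and at most 6 and at least 3 rose. In metafemales against males the count that rose was 4, and 5 by DESeq2 (with Cdc6), 0 with either scaling by totals, 2 without a filter or with at least 10 counts in every library, 1 with the replicate block and 2 to 3 without single libraries, while 12 fell, and 12 to 13 without single libraries and 16 with totals over annotated genes only. The ratio of replication over mitotic genes in metafemales over that in females was 1.25, and 1.40 without fzr, 1.13 with the further lists and 1.20 to 1.28 without single libraries. In males over females it was 0.783, and 0.687 from mean log2 values, 0.875 with the further lists and 0.746 to 0.827 without single libraries. The causes of these shifts were not tested. Replicate numbers were not shown to pair the libraries: deviations of libraries with the same number correlated at -0.16 to 0.14. Genes near 1 CPM, such as twe in females, have the fewest counts.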
